A study of Mus musculus with 26 samples.

Results

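The CCR4-NOT complex is the main deadenylase of animal cells, which shortens the poly(A) tail of mRNAs and so starts their decay and silencing. The genes of its 10 core subunits were followed in the testes of mice that carry binding sites for a piRNA: *Cnot1*, *Cnot2*, *Cnot3*, *Cnot6*, *Cnot6l*, *Cnot7*, *Cnot8*, *Cnot9*, *Cnot10* and *Cnot11*. They were chosen by name, as the core subunits of the complex and by no threshold on their values, from the 51124 genes of the deposited table, and all 10 passed the filter on low values that left 23782 genes for testing. RNA-seq was made from total RNA of whole adult testes after depletion of ribosomal RNA, in 6 libraries from 6 mice, with 2 mice per genotype. WT mice (libraries N1 and N2) carried no insertion. *10xPerf* mice (N3 and N4) carried 10 tandem sites with full complementarity to piR-A, a piRNA of pachytene spermatocytes and spermatids. The sites lie in the 3′ UTR of *Ythdc2*, which encodes an RNA helicase needed for meiosis. *10xBulge* mice (N5 and N6) carried 10 sites in the same place that do not pair with piR-A at its nucleotides 10 and 11. Both knock-in lines were made with CRISPR/Cas9 in embryos of the B6D2F1/J hybrid line, so the genetic background is mixed. The ages of the mice beyond adult are not given in the sources used here. The question of the comparisons was how the testis transcriptome differs between genotypes, and the genotypes are compared here for the deadenylase.

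The complex is built on the scaffold CNOT1, which holds each of the other modules. CNOT2 and CNOT3 form the NOT module at one end of the scaffold. The nuclease module pairs a CAF1-type deadenylase, CNOT7 or its paralogue CNOT8, with a CCR4-type deadenylase, CNOT6 or its paralogue CNOT6L. CNOT9 contacts adaptor proteins such as those of the miRNA pathway, and CNOT10 and CNOT11 form a further module at the other end of the scaffold. In the testis the complex is known through *Cnot7*, whose loss makes male mice sterile, and through its recruitment by MIWI to mRNAs that piRNAs target in elongating spermatids.

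The paralogous nucleases share much of their coding sequence, so the shared stretches decide whether 100-base reads could be assigned to each. *Cnot7* and *Cnot8* were identical at 70.9% of 858 aligned coding bases, and *Cnot6* and *Cnot6l* at 73.3% of 1653. The longest identical coding run in each pair was 20 bases, shorter than the 31 bases in which salmon matches reads by default. The runs are shown in capitals within 30 bases of coding sequence, read from GENCODE M21 transcripts on GRCm38.
Cnot7: ggctaTCATTTCACAGTGGTTATGActttg
Cnot8: ggcttTCATTTCACAGTGGTTATGAttttg
Cnot6: caaatCATAAAGACTTCAAGGAACTgaggt
Cnot6l: acaacCATAAAGACTTCAAGGAACTaaggt
In *Cnot7* the shared run spanned exons 3 (chr8:40500752-40500762) and 4 (chr8:40499431-40499439) on the minus strand. In *Cnot8* it spanned exons 4 (chr11:58113203-58113213) and 5 (chr11:58113950-58113958) on the plus strand. The run shared by the CCR4-type pair lay in exon 11 of *Cnot6* (chr11:49677442-49677461, minus strand) and in exon 11 of *Cnot6l* (chr5:96080075-96080094, minus strand). The bases on each side already differed, so no read of 100 bases from the coding sequence could match both members of a pair without a mismatch.

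Reads could still be shared with pseudogenes. Of the 31-base words in *Cnot8* transcripts, 11.7% occurred in another gene, and the longest shared run was 174 bases with the processed pseudogene *Gm18860*. For *Cnot3* the share was 12.2%, with a run of 184 bases in *Gm9207*, and for *Cnot1* it was 5.60%, with a run of 420 bases in *Gm6158*. *Gm18860* and *Gm6158* were listed at 0 in all 6 libraries, and *Gm9207* lay between 0 and 14.5 normalized counts. Of the other members, *Cnot2*, *Cnot6l*, *Cnot9* and *Cnot11* shared no such word with another gene, and *Cnot6*, *Cnot7* and *Cnot10* shared at most 1.24%. Whether reads of the 3 genes with longer shared runs were split with pseudogenes was not tested.

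The libraries summed to between 39754103 and 59804251 normalized counts, and 3 reads were worth at most 3.63 normalized counts, far below the lowest value of any member. *Ythdc2*, the gene that carries the sites, had 827 and 2412 normalized counts in N1 and N2, 1334 and 1136 in N3 and N4, and 1202 and 2458 in N5 and N6. The genotypes overlapped in every comparison. The spermatid marker list (12 genes, among them *Prm1* and *Tnp2*) summed to 622585 to 868526 normalized counts in the WT and *10xPerf* libraries and to 3116 and 1527 in N5 and N6. The sums for spermatocytes (12 markers) ranged from 38924 to 69567 in the WT and *10xPerf* libraries, and N5 and N6 lay within that range at 42218 and 47593. Spermatogonial (10), Sertoli cell (10), Leydig cell (8) and macrophage (8) markers were all detected in every library, and for each of these 4 lists N5 and N6 exceeded every other library. Replicates of a genotype also differed with base composition. Over 12426 well measured genes, the log2 ratio of the libraries correlated with GC content (Spearman's rho 0.61 for N1 over N2, -0.24 for N3 over N4 and 0.52 for N5 over N6). In bulk testis, fewer cells of a type and less RNA per cell cannot be told apart.

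**Figure D1:**
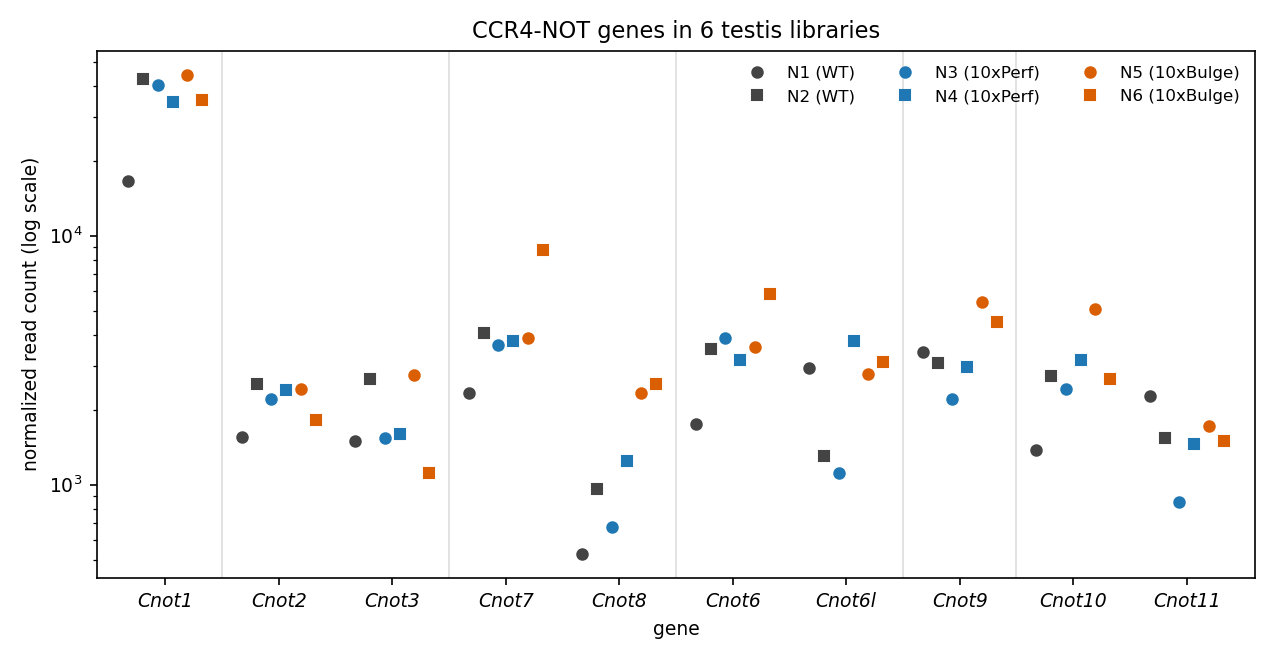
Normalized read count (log scale) of each CCR4-NOT gene in the 6 testis libraries, ordered by role from the scaffold to the CNOT10-CNOT11 module; colour marks the genotype and each point is 1 mouse. *Cnot8* is the gene whose *10xBulge* points (2333 and 2548) lie farthest above all other libraries, while N1 holds the lowest value of 6 of the 10 genes.

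All 10 genes were well expressed in WT testis. Levels between genes were compared per kb of the longest coding transcript. *Cnot1* stood first in every library, with 3536 ± 2196 normalized counts per kb in WT (SD, n = 2). *Cnot7* followed at 1074 ± 411, then *Cnot9* at 997 ± 72.0, *Cnot3* at 735 ± 287, *Cnot2* at 732 ± 248 and *Cnot10* at 721 ± 334. At the lower end stood *Cnot11* at 548 ± 148, *Cnot6* at 460 ± 218, *Cnot8* at 355 ± 147 and *Cnot6l* at 247 ± 135. The WT libraries of neighbours in this order did not overlap between *Cnot1* and *Cnot7* or between *Cnot9* and *Cnot3*, and overlapped for the other 7 pairs. *Cnot7* thus had the highest mRNA level per kb of the deadenylase genes in WT testis. *Cnot8* and *Cnot6l* had the lowest means of the 10, though *Cnot6* lay below *Cnot6l* in N1 and *Cnot11* below *Cnot8* in N2. This order depends on the length taken, which was 8564 bases for *Cnot6l* and 2099 for *Cnot8*. Before division by length, the WT means were 2118 normalized counts for *Cnot6l* and 745 for *Cnot8*. Which transcripts the testis uses was not tested. The per-kb levels summed over the 10 genes were 6940 and 11871 in WT, 10280 and 10801 in *10xPerf*, and 14414 and 13510 in *10xBulge*. The sum was highest in the *10xBulge* libraries and lowest in N1.

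The WT libraries differed for most members, in either direction. N1 held the lowest value of *Cnot1*, *Cnot2*, *Cnot6*, *Cnot7*, *Cnot8* and *Cnot10*, but the highest of *Cnot11*, and *Cnot6l* and *Cnot9* were also higher in N1 than in N2. The fold between the libraries of a genotype had a median over the members of 1.79 in WT, 1.26 in *10xPerf* and 1.30 in *10xBulge*, with the largest at 2.57 for *Cnot1* in WT, 3.40 for *Cnot6l* in *10xPerf* and 2.48 for *Cnot3* in *10xBulge*. The limma p-values rest on a spread for each gene that was pooled over all genotypes, with 2 mice in each. That spread was also moderated by the trend over all genes tested.

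The scaffold and the NOT module did not pass the test in any comparison. *Cnot1*, on chromosome 8 (GRCm38 chr8:95719451-95807464), had 16641 and 42700 normalized counts in WT, 40447 and 34364 in *10xPerf*, and 44308 and 35149 in *10xBulge*. N1 stood apart below the other 5 libraries and the genotypes overlapped. The log2 fold change was 0.48 in *10xPerf* against WT and 0.57 in *10xBulge* against WT (SE 0.52 in each), with limma adjusted p = 0.864 and 0.461. *Cnot2* had 1558 and 2540 normalized counts in WT, 2214 and 2390 in *10xPerf*, and 2433 and 1821 in *10xBulge*. These values stayed within a narrow band and the log2 fold changes lay between -0.13 and 0.21 in the 3 comparisons. *Cnot3*, which with *Cnot2* anchors regulators to the scaffold, had 1504 and 2648 normalized counts in WT, 1533 and 1598 in *10xPerf*, and 2755 and 1111 in *10xBulge*. The *10xBulge* libraries held its highest and its lowest value.

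Of the CAF1-type deadenylases, *Cnot8* was higher in *10xBulge* testes than in both other genotypes. *Cnot8* (chr11:58104153-58118594, GRCm38) had 527 and 964 normalized counts in WT, 678 and 1240 in *10xPerf*, and 2333 and 2548 in *10xBulge*. Both *10xBulge* libraries stood above the other 4 libraries, while WT and *10xPerf* overlapped. The mean rose from 745 ± 309 in WT to 2440 ± 152 in *10xBulge* (SD, n = 2), a 3.42-fold difference (log2 fold change 1.77, SE 0.47, 95% confidence interval 0.72 to 2.82, limma adjusted p = 0.0216). Against *10xPerf*, at 959 ± 398, the difference was 2.66-fold (log2 fold change 1.41, SE 0.47, interval 0.36 to 2.46, limma adjusted p = 0.0504). In *10xPerf* against WT it was 0.36 (SE 0.47, limma adjusted p = 0.877). Single libraries decided these calls. Without N1 the log2 fold change of *Cnot8* in *10xBulge* against WT was 1.34 (limma adjusted p = 0.152), and without N3 that against *10xPerf* was 0.97 (limma adjusted p = 0.349). With the GC trend of each library removed, the values were 1.84 (limma adjusted p = 0.00885) and 1.59 (limma adjusted p = 0.0166). That trend can also hold GC-linked differences between genotypes.

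Its paralogue *Cnot7* (chr8:40492540-40515847, GRCm38) had 2334 and 4069 normalized counts in WT, 3650 and 3775 in *10xPerf*, and 3879 and 8788 in *10xBulge*. N6 was far above the other 5 libraries, whereas N5 lay below the higher WT library. The log2 fold change of *10xBulge* against WT was 0.92 (SE 0.49, interval -0.20 to 2.04) and did not pass the test (limma adjusted p = 0.204). Against *10xPerf* it was 0.65 (limma adjusted p = 0.359). With the GC trend removed, *Cnot7* passed both tests at 1.00 (limma adjusted p = 0.0480) and 1.02 (limma adjusted p = 0.0434), and without N5 it passed against WT (1.51, limma adjusted p = 0.0495). The interval of *Cnot7* overlapped that of *Cnot8* in each comparison.

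The ratio of the paralogues within a library does not depend on how libraries were scaled. On a per-kb scale, *Cnot8* made up 24.3% and 25.2% of the CAF1-type pair in WT, 20.9% and 31.8% in *10xPerf*, and 46.1% and 29.2% in *10xBulge*. N5 held the highest share, while N6 lay between the *10xPerf* libraries, so the *10xBulge* range was clear of WT and overlapped *10xPerf*. The log2 ratio of *Cnot8* to *Cnot7* differed by 0.85 between *10xBulge* and WT (exact permutation test, two-sided, p = 0.333, the smallest that 2 libraries against 2 can give) and by 0.76 between *10xBulge* and *10xPerf* (exact p = 0.667). Leaving out N5 gave 0.32 and 0.23 for these differences, and leaving out N6 gave 1.38 and 1.28. With the GC trend removed they were 0.84 and 0.57. With 2 libraries per genotype this test could not reach 0.05. In the order of per-kb levels of the 10 genes, *Cnot8* stood at positions 10 and 8 in WT, 8 and 6 in *10xPerf*, and 5 and 4 in *10xBulge*.

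The CCR4-type deadenylases did not pass the test in any comparison. *Cnot6* (chr11:49671503-49712723, GRCm38) had 1752 and 3522 normalized counts in WT, 3879 and 3171 in *10xPerf*, and 3562 and 5811 in *10xBulge*. The *10xBulge* libraries lay above both WT libraries, N5 by a small margin. The log2 fold change against WT was 0.87 (SE 0.47, limma adjusted p = 0.204). It was called with equal library sums (1.26, limma adjusted p = 0.0934), with the GC trend removed (0.86, limma adjusted p = 0.0680) and without N2 (1.38, limma adjusted p = 0.0985). *Cnot6l* (chr5:96070333-96164171, GRCm38) had 2938 and 1298 normalized counts in WT, 1111 and 3777 in *10xPerf*, and 2774 and 3096 in *10xBulge*. Within WT and within *10xPerf* its libraries differed more than any genotypes did, and *Cnot6l* took between 16.1% and 52.9% of the CCR4-type pair per kb. N1 and N4, with the highest shares, belong to different genotypes, and the log2 ratio of *Cnot6l* to *Cnot6* differed by -0.29 between *10xBulge* and WT (exact permutation test, p = 1), from -1.38 without N2 to 0.80 without N1.

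**Figure D2:**
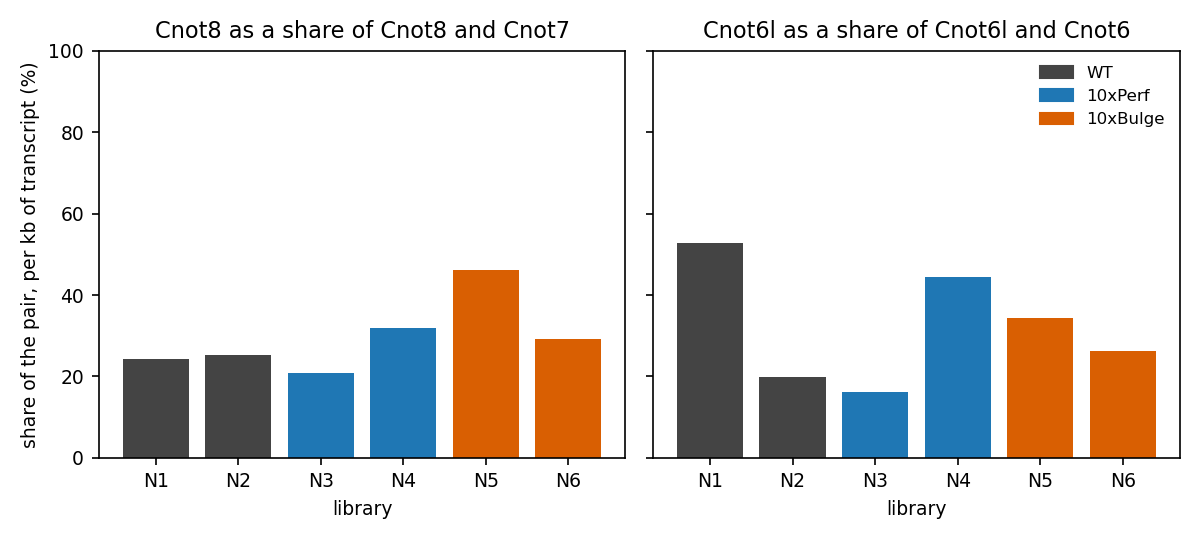
Share of *Cnot8* in the CAF1-type pair (left) and of *Cnot6l* in the CCR4-type pair (right), in percent of the summed level per kb of transcript; each bar is 1 library and colour marks the genotype. *Cnot8* reaches 46.1% in N5 and 29.2% in N6 beside 24.3% and 25.2% in WT, and *Cnot6l* varies as much within genotypes as between them.

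*Cnot9*, the adaptor-binding subunit (chr1:74506058-74530842, GRCm38), had 3425 and 3092 normalized counts in WT, 2209 and 2960 in *10xPerf*, and 5406 and 4509 in *10xBulge*. The 3 genotypes did not overlap, with *10xPerf* lowest and *10xBulge* highest. The mean was 2585 ± 531 in *10xPerf* and 4958 ± 634 in *10xBulge* (SD, n = 2), a 1.93-fold difference that passed the test (log2 fold change 0.95, SE 0.38, interval 0.083 to 1.81, limma adjusted p = 0.0961). The call lay close to the threshold of 0.1. It was lost when any 1 library was left out, with limma adjusted p from 0.101 to 0.421. Against WT, at 3259 ± 235, the difference did not pass (log2 fold change 0.60, SE 0.38, limma adjusted p = 0.282), though it did with equal library sums (0.98, limma adjusted p = 0.0397). In *10xPerf* against WT it was -0.35 (limma adjusted p = 0.865).

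Neither gene of the CNOT10-CNOT11 module passed the test in any comparison. *Cnot10* (chr9:114585878-114640184, GRCm38) had 1384 and 2732 normalized counts in WT, 2428 and 3169 in *10xPerf*, and 5086 and 2659 in *10xBulge*. N5 stood above all other libraries and N6 lay below the higher WT library. The log2 fold change against WT was 0.92 (SE 0.49, limma adjusted p = 0.201), and it was called with equal library sums (1.30, limma adjusted p = 0.0533) and without N6 (1.39, limma adjusted p = 0.0762). *Cnot11* (chr1:39534992-39546889, GRCm38) had 2271 and 1544 normalized counts in WT, 855 and 1456 in *10xPerf*, and 1717 and 1495 in *10xBulge*. Both *10xPerf* libraries lay below the other 4. The log2 fold change of *10xPerf* against WT was -0.75 (SE 0.43, interval -1.71 to 0.22, limma adjusted p = 0.853), the farthest from 0 of any member in that comparison.

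Across the family, none of the 10 genes was called by limma in *10xPerf* against WT, beside 0.959% of all genes, and none reached an unadjusted p under 0.05, beside 6.09% of all genes. Log2 fold changes ran from -0.75 for *Cnot11* to 0.51 for *Cnot10*, with a median of 0.24 beside 0.018 over all genes. The libraries did not overlap for *Cnot9* and *Cnot11*, 2 of 10, beside 40% of all genes. The interval of each gene included 0, with the lowest end at -1.71 for *Cnot11* and the highest at 1.66 for *Cnot1*. Intervals differed between genes, and that of *Cnot9* ran from -1.21 to 0.52. With 2 mice per genotype, changes inside a gene's own interval were not excluded. Without N1 the median of the members was -0.14.

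In *10xBulge* against WT, *Cnot8* was the only member called, 1 of 10 higher and 0 lower, beside 34.4% of all genes called, 11.4% higher and 23% lower. The share called higher was thus near that of all genes. Of the 10 log2 fold changes, 8 were above 0, beside 11702 of all 23782 genes. Their median was 0.59 beside -0.026 over all genes, and the range was -0.22 for *Cnot11* to 1.77 for *Cnot8*. Every member had at least 10 in every library, and over the 18064 genes with such values the median was 0.15. The libraries did not overlap for *Cnot6*, *Cnot8* and *Cnot9*, 3 of 10, beside 62.1% of all genes. With equal library sums *Cnot6*, *Cnot8*, *Cnot9* and *Cnot10* were called and the median over all genes moved to 0.36. Among all genes called, 33.2% were higher in the deposited scaling and 55% with equal sums. Of the calls over genes with at least 10 in every library, 47% were higher. With the GC trend removed *Cnot6*, *Cnot7* and *Cnot8* were called, and without N1 no member was.

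In *10xBulge* against *10xPerf*, *Cnot8* and *Cnot9* were called higher, 2 of 10, and none lower, beside 37% of all genes called, 12.9% higher and 24.1% lower. The members' log2 fold changes ran from -0.13 for *Cnot2* to 1.41 for *Cnot8*, with a median of 0.46 beside -0.067 over all genes. Over the genes with at least 10 in every library the median was 0.13. The libraries did not overlap for *Cnot7*, *Cnot8*, *Cnot9* and *Cnot11*, 4 of 10, beside 66.1% of all genes. Among all genes called, 34.9% were higher, 49.8% with equal library sums and 48.2% over genes with at least 10 in every library. Without N3 no member was called and the members' median was 0.21, and with equal library sums it was 0.71 beside 0.18 over all genes. The 3 comparisons share libraries and are not independent of each other.

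**Figure D3:**
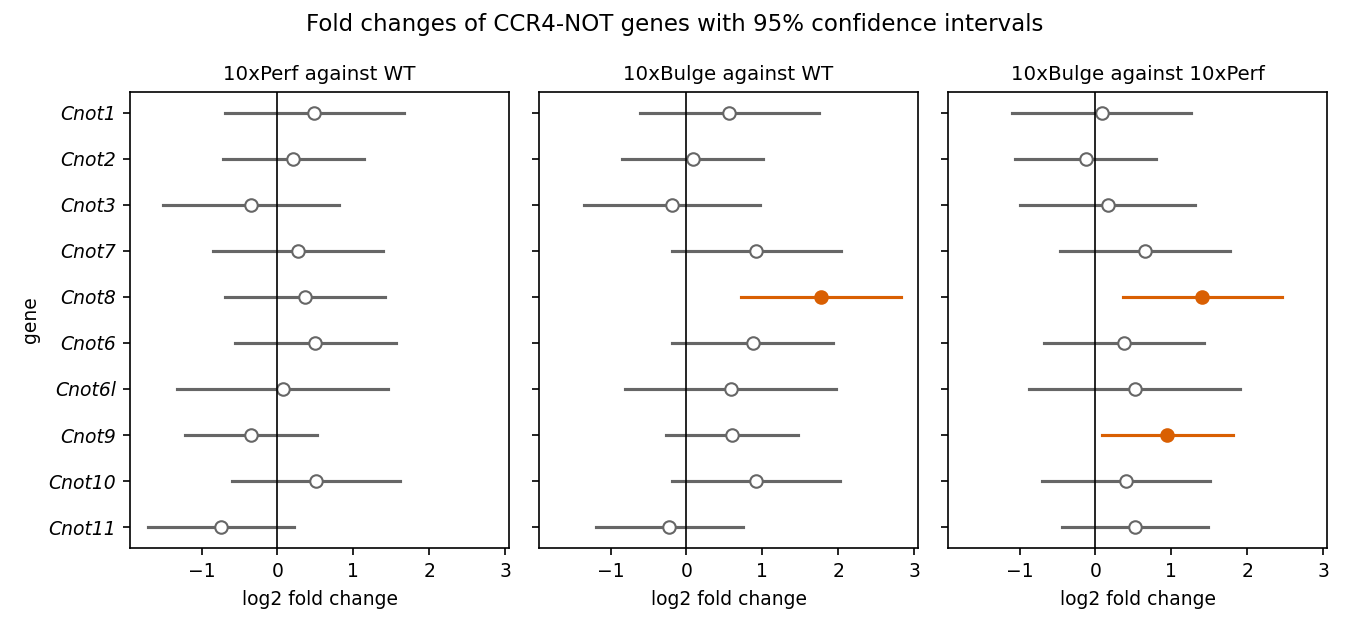
Log2 fold change (x axis) of each CCR4-NOT gene in the 3 comparisons, with 95% confidence intervals from limma; filled orange points passed an adjusted p under 0.1 over all 23782 genes, open points did not. *Cnot8* passed in both comparisons of *10xBulge* (1.77 and 1.41) and *Cnot9* against *10xPerf* (0.95), and every interval of *10xPerf* against WT includes 0.

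Markers of other cell types moved with the *10xBulge* genotype beside these values. Of the spermatid markers 12 of 12 were called lower by limma in *10xBulge* against WT, with log2 fold changes from -10.97 to -3.48. Called higher were 6 of 10 Sertoli cell, 6 of 8 Leydig cell, 6 of 8 macrophage and 2 of 10 spermatogonial markers. Of 12 spermatocyte markers 1 was called higher and 1 lower. Over all genes, 11.4% were called higher and 23% lower. The median log2 fold changes of the markers of the somatic cells were 1.18 for Sertoli cells, 1.77 for Leydig cells and 1.53 for macrophages, beside 1.77 for *Cnot8*. In *10xPerf* against WT no marker was called, beside 0.959% of all genes. The part of these cell types in the differences of *Cnot8* and *Cnot9*, and of the genes around the complex, was not tested.

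The genes around the complex moved in both directions in *10xBulge* testes, and none was called in *10xPerf* against WT, beside 0.959% of all genes. Of 25 partners and recruiters tested, which bring the complex to its targets, 4 were higher and 6 lower in *10xBulge* against WT, beside 11.4% of all genes higher and 23% lower. The median log2 fold change was 0.40. *Samd4*, the Smaug RNA-binding protein that recruits the deadenylase, fell from 19897 and 13130 normalized counts in WT to 261 and 185 in *10xBulge*. Its values in *10xPerf* were 19948 and 17158, and the log2 fold change was -6.20 against WT (SE 0.41, limma adjusted p = 9.4e-06) and -6.39 against *10xPerf*. The spermatid markers had log2 fold changes from -10.97 to -3.48 against WT in the same libraries. The part of spermatid RNA in the fall of *Samd4* was not tested. *Samd4b*, the paralogue of *Samd4*, was lower by a log2 fold change of -1.63. Among the antiproliferative BTG proteins, which bind CAF1-type deadenylases, *Btg3* rose (1.76) and *Btg4* fell (-1.77) against WT, and *Btg2* rose against *10xPerf* (1.89). *Zfp36l2*, which brings the complex to AU-rich elements, rose against both (1.27 and 1.38), *Helz* against WT (1.32) and *Tnks1bp1* against *10xPerf* (1.37).

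Of 9 genes listed as other deadenylases, *Angel2* rose (1.10) and *Angel1* fell (-1.69) in *10xBulge* against WT, beside 34.4% of all genes called. Against *10xPerf*, *Angel2* (1.19), the mitochondrial deadenylase *Pde12* (1.09) and the piRNA trimmer *Pnldc1* (1.27) rose and none fell. Over all genes, 37% were called in that comparison, 12.9% higher and 24.1% lower. The median of this list against WT was 0.41. Of 20 genes of decapping and 5′ to 3′ decay, 5 were higher and 1 lower against WT, with a median of 0.64. The 6 calls make a share below the 34.4% of all genes. Against *10xPerf* 4 were higher, beside 12.9% of all genes. Those higher against WT included *Lsm14a* (1.24), *Lsm14b* (1.13) and *Lsm6* (1.66). Of these, *Lsm6* encodes a subunit of the LSM ring that binds shortened tails. *Dcp1b*, a decapping activator, was lower (-1.32). *Lsm1*, of the same ring as *Lsm6*, rose against *10xPerf* (1.15). Other genes build or bind poly(A) tails, and of 19 tested, 3 were higher and 4 lower against WT, near the 34.4% of all genes called, with a median of -0.54. Against *10xPerf* 4 were higher and 7 lower, beside 12.9% and 24.1% of all genes. *Tent5c*, a cytoplasmic poly(A) polymerase, fell from 41507 and 32912 normalized counts in WT to 7836 and 5757 in *10xBulge*, with 24797 and 35715 in *10xPerf* (log2 fold change -2.46, SE 0.43, limma adjusted p = 0.00243). *Pabpc1l* (-2.87) and *Tent5b* (-1.54) fell against WT, and the testis poly(A) polymerase *Papolb* (-1.86) and *Paip2* (-1.31) against *10xPerf*. *Paip1* (1.51), *Tent5a* (1.77) and *Pabpc4* (1.33) rose against WT, and *Tent4a* (1.05) against *10xPerf*.

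Together these 4 lists had 13 genes higher and 12 lower in *10xBulge* against WT, a share called near the 34.4% of all genes, and 28 higher and 7 lower with equal library sums. Against *10xPerf* they had 16 higher and 9 lower, beside 37% of all genes called, and 23 higher and 7 lower with equal library sums. Of the 18 genes named for *10xBulge* against WT, 4 kept their call whichever library was left out: *Samd4*, *Btg4*, *Lsm6* and *Tent5c*. Of the 17 named against *10xPerf*, 2 did, *Samd4* and *Tent5c*. Without N1, 8 genes of the lists were called against WT in place of 25, and without N3, 2 in place of 25 against *10xPerf*. The part of spermatid RNA in the genes that fell, *Tent5c* among them, was not tested. *Nanos2*, *Pabpc5* and *Pabpn1l* were too low to be tested.

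**Figure D4:**
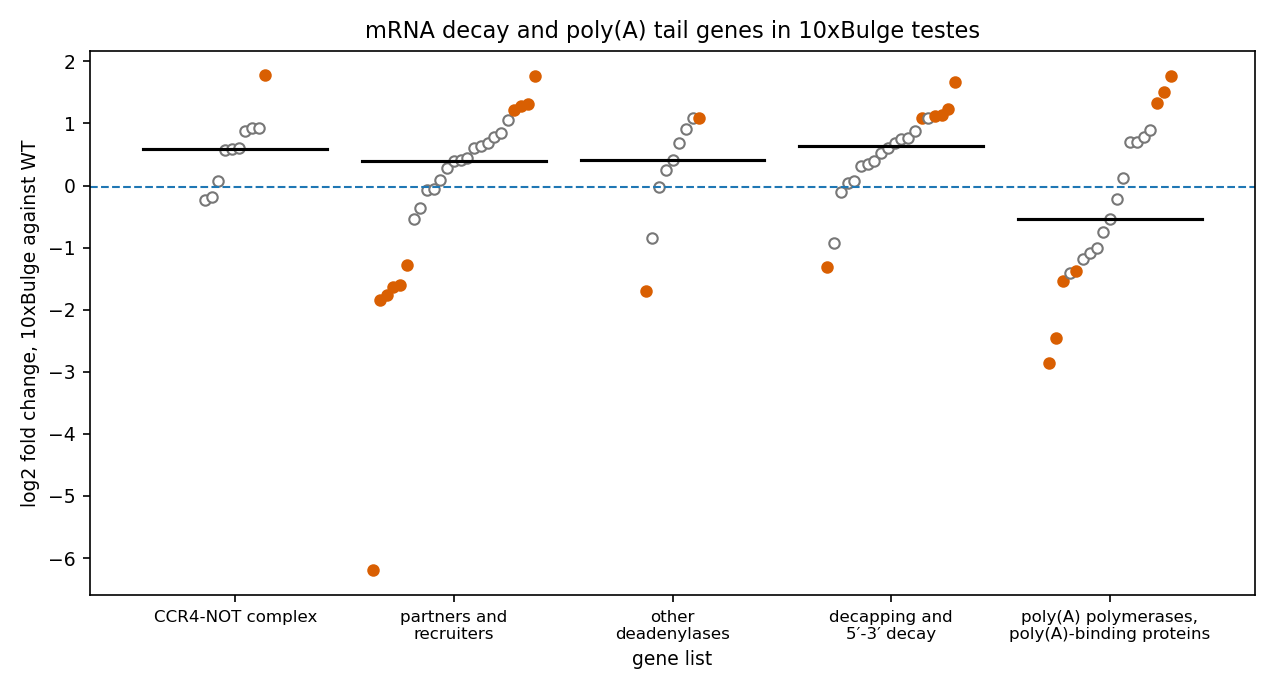
Log2 fold change of *10xBulge* against WT for each gene of 5 lists, sorted within each list; filled orange points were called by limma, the black line is the median of the list and the dashed line the median of all genes tested (-0.026). The CCR4-NOT genes spread from -0.22 to 1.77, while *Samd4* at -6.20 is the lowest of the partners.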

How the data were processed

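The authors quantified single-end reads of stranded, ribosome-depleted testis RNA with salmon against GRCm39 (Ensembl release 104), with its correction for GC bias, and gave each gene a read count normalized with DESeq2. The deposited values are thus a scaled signal. In each library 7.32% to 10.5% of values were whole multiples of the most frequent step (tolerance 0.001), so reads were not recovered and no count model was fitted. The approximate depth was 41100000 to 61600000 reads. The table also holds the authors' own log2 fold changes and p-values adjusted by DESeq2, made before deposit, which were not used. Versions of salmon and DESeq2 are not given in the sources used here.

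Values were taken to log2(value + 1), which understates changes of low genes. Genes that reached 10 in 2 or more libraries were fitted with limma 3.58.1 (R 4.3.3, empirical Bayes with a mean-variance trend) over all 6 libraries, with 1 mean per genotype and Benjamini-Hochberg adjustment over all 23782 genes. A gene was called at an adjusted p under 0.1. Fold changes are on this log2 scale. Paralogue ratios were compared with exact permutation tests. The procedure was checked on simulated data in which few genes changed, as many higher as lower. That setting lacks the many and mostly lower calls of *10xBulge*, so it does not measure the error there.

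Sequence sharing and transcript length and GC came from GENCODE M21 (GRCm38), not the build of the files, and 23614 of the tested genes had a GC value. The GC trend was removed per library (loess, span 0.3), with each library's mean log2 value kept. It was fitted to each library's deviation from the mean of all 6 libraries. GC-linked differences between genotypes thus enter the trend as well as those between replicates. Alternatives also changed the pseudocount, filter, scaling, threshold, trend and libraries. The family, its members and all gene lists were chosen with earlier results of these data known. Named genes beyond the members were, per list and comparison, at most 3 higher and 3 lower of the called genes with the smallest p whose libraries did not overlap. Sharing of reads with near-identical copies was not examined for them. The 20 MILI and MIWI immunoprecipitation samples were not analysed here.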

Additional observations from a re-analysis of the deposited data

Results flagged for a closer look

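The effect against WT differed between *10xPerf* and *10xBulge* for 2 CCR4-NOT genes and for 25 genes of the 4 lists around the complex. Over all genes tested, it differed for 37%. Of the 25 genes, the 17 named by the rule are given. The difference itself was tested, since *10xBulge* minus WT less *10xPerf* minus WT is *10xBulge* against *10xPerf*. The values are log2 fold changes of *10xBulge* against *10xPerf* at a limma adjusted p under 0.1. Of the deadenylase, *Cnot8* (1.41) and *Cnot9* (0.95) were higher in *10xBulge*, beside 12.9% of all genes. Of the partners and recruiters, *Btg2* (1.89), *Zfp36l2* (1.38) and *Tnks1bp1* (1.37) were higher and *Samd4* (-6.39) and *Btg4* (-1.65) lower. Of the genes listed as other deadenylases, *Angel2* (1.19), *Pde12* (1.09) and *Pnldc1* (1.27) were higher. The decay factors *Lsm14b* (1.26), *Lsm1* (1.15) and *Lsm6* (1.01), and *Pabpc4* (1.31), *Tent5a* (1.68) and *Tent4a* (1.05) were also higher. *Tent5c* (-2.15), *Papolb* (-1.86) and *Paip2* (-1.31) were lower. With 2 libraries per genotype no search for a library far from its group could be made.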

How the results depend on the processing

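No paired analysis was possible because the replicate numbers run from 1 to 6 over the genotypes and none is shared. In *10xBulge* against WT, 1 member was called. The count was 4 with equal library sums, 3 with the GC trend removed and 0 to 2 when 1 library was left out (0 without N1). In *10xBulge* against *10xPerf*, 2 members were called. The count was 3 with the GC trend removed, 1 with a trimmed mean of log ratios, without the filter, with at least 10 in every library or without the mean-variance trend, 0 at an adjusted p under 0.05, and 0 to 1 when 1 library was left out (0 without N3). No alternative called a member in *10xPerf* against WT. Of the other lists 25 genes were called in *10xBulge* against WT, and 13 with only the 2 genotypes compared, 12 at an adjusted p under 0.05 and 8 to 25 with 1 library left out. Against *10xPerf* 25 were called, 11 at an adjusted p under 0.05 and 2 to 28 with 1 library left out. The GC correction gave 16 higher and 16 lower there, in place of 16 and 9. Over all alternatives, *Cnot8* against WT ranged from 1.34 to 2.21 and kept its direction.

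Among the log2 fold changes of members, 31 were reversed, all in comparisons where the member was not called. Differences in some paralogue ratios, which no test called, also changed sign with 1 library left out. In *10xBulge* the difference of *Cnot8* to *Cnot7* stayed above 0, at 0.32 to 1.38 against WT and 0.23 to 1.28 against *10xPerf*. The difference of *Cnot8* to *Cnot7* in *10xPerf* against WT ranged from -0.32 to 0.51, and that of *Cnot6l* to *Cnot6* from -1.52 to 0.66, from -1.38 to 0.80 in *10xBulge* against WT and from -0.89 to 1.17 against *10xPerf*. With the GC trend removed, *10xPerf* against WT gave *Cnot2* -0.035, *Cnot6l* -0.22 and *Cnot7* -0.021, and *10xBulge* against *10xPerf* gave *Cnot2* 0.16. With equal library sums, *10xBulge* against WT gave *Cnot3* 0.19 and *Cnot11* 0.16, and against *10xPerf* *Cnot2* 0.12. With a trimmed mean of log ratios, *10xBulge* gave *Cnot2* -0.016 against WT and *Cnot1* -0.023 against *10xPerf*. The ranges with 1 library left out were as follows. In *10xPerf* against WT they were -0.20 to 1.16 for *Cnot1*, -0.14 to 0.56 for *Cnot2*, -0.76 to 0.058 for *Cnot3*, -0.0059 to 1.00 for *Cnot6*, -0.81 to 0.95 for *Cnot6l*, -0.13 to 0.67 for *Cnot7* and -0.072 to 0.80 for *Cnot8*. In *10xBulge* against WT they were -0.11 to 1.25 for *Cnot1*, -0.27 to 0.43 for *Cnot2*, -0.84 to 0.47 for *Cnot3*, -0.0033 to 1.17 for *Cnot6l* and -0.50 to 0.054 for *Cnot11*. In *10xBulge* against *10xPerf* they were -0.085 to 0.25 for *Cnot1*, -0.34 to 0.081 for *Cnot2*, -0.49 to 0.82 for *Cnot3*, -0.37 to 1.40 for *Cnot6l* and -0.061 to 0.87 for *Cnot10*. What caused the reversals was not tested.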
